A study of Homo sapiens with 6 samples.

Results

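The apolipoproteins that hepatocytes secrete were followed in HepG2 cells as 10 genes, APOA1, APOA2, APOA4, APOB, APOC1, APOC2, APOC3, APOE, APOH and APOM, chosen by symbol. All 10 had a row among the 20422 genes of the count table. HepG2, a hepatoma cell line in long use, secretes many plasma proteins. RNA-Seq was performed on 3 samples of control cells (NC), which per the labels received vector plasmid, and on 3 samples of cells given a plasmid for Flag-tagged APPLE (ORF-Flag), the microprotein encoded by the lncRNA ASH1L-AS1. In the methods of the paper, cells were infected with lentivirus and selected, so the delivery is given in both forms. ASH1L-AS1 was not analysed here, and the level of the construct therefore did not check the labels. The NC libraries, replicates 1 to 3 in order, held 20081203, 24907524 and 30088457 counts. The ORF-Flag libraries, in the same order, held 26866148, 17494668 and 27015836, and values by library are given in this order throughout. Whether replicates came from separate cultures is not given in the sources used here, so p-values measure the spread between these samples, which may be technical.

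Apolipoproteins are the protein part of lipoproteins, the particles that carry cholesterol and triglycerides in blood. APOB forms the scaffold of VLDL and LDL and stays with its particle, whereas the smaller apolipoproteins of the A, C and E groups exchange between particles, activate or inhibit lipases and bind receptors. The liver is their main source together with the intestine, and hepatocyte-like lines such as HepG2 are widely used to study their secretion.

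Levels of different genes were compared as CPM (counts scaled to a common, TMM-normalized library total) per kilobase of exon. Per kilobase, APOA2 had the highest level, with 1903 ± 94.9 CPM in NC and 2126 ± 44.4 CPM in ORF-Flag (SD, n = 3). APOA1 followed with 1101 ± 56.8 CPM per kilobase in NC and 1071 ± 22.3 in ORF-Flag (SD, n = 3). APOH lay at 929.1 ± 38.4 CPM per kilobase in NC and 1032 ± 23.8 in ORF-Flag (SD, n = 3). The libraries of APOA1 and APOH did not overlap in NC, but they overlapped in ORF-Flag, so their order there was within the spread. With the longest transcript as the length, APOA1 was at 1224 to 1272 CPM per kilobase in ORF-Flag and APOH at 1143 to 1197, and these did not overlap. APOB, at 493.1 to 549.8 CPM per kilobase over the 6 libraries, lay above APOE, at 356.3 to 432.5. With the length of the longest transcript in place of all exons, APOE took 646.2 to 784.5 CPM per kilobase and APOB 517.8 to 577.3, so the order of these genes depended on the length used. APOC1 ranged from 177.3 to 193.3 CPM per kilobase, and from 317 to 345 with the length of its longest transcript. Much lower were APOC3, at 37.0 to 43.9, APOM, at 30.6 to 34.7, and APOA4, at 2.60 to 3.40 CPM per kilobase. APOC2 reached at most 0.113 CPM per kilobase.

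**Figure D1:**
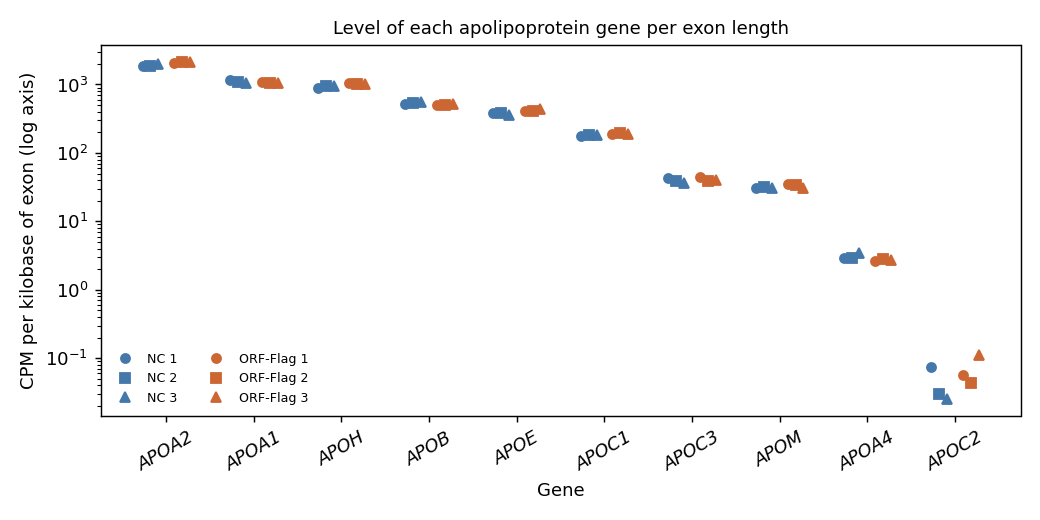
Level of each apolipoprotein gene in CPM per kilobase of exon on a log axis, with 1 point for each of the 3 NC and 3 ORF-Flag libraries and genes in order of their NC mean. APOA2 stands highest, at 1833 to 2165, and APOC2 lowest, at or below 0.113.

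The question was whether these genes changed when APPLE was overexpressed. APOA2, APOE and APOH were upregulated in ORF-Flag, each about 1.1-fold, and 0 apolipoprotein genes were downregulated when edgeR's quasi-likelihood test was read at an adjusted p below 0.05. DESeq2, limma-trend and limma-voom also called 3 higher and 0 lower. At an unadjusted p below 0.05, edgeR gave 4 higher and 1 lower, adding APOC1 and APOB, beside 9.29% of all tested genes higher and 9.22% lower at that threshold. Of the 10 genes, 9 had enough counts to be tested, and the 3 upregulated genes stand beside 2.47% of all 12386 tested genes called higher in ORF-Flag (306 genes) and 1.98% called lower (245 genes). The 3 genes had at least 15398 counts in each library, and the shares over all tested genes were not matched for depth. The median log2 fold change was 0.085 over the 9 tested apolipoprotein genes and -0.0012 over all tested genes. In 4 of the 9 genes every ORF-Flag library lay above every NC library, against 11.5% of all tested genes, and in 1 gene every ORF-Flag library lay below, against 10.9%. In such bulk samples, a change in the share of cells that express a gene and a change in RNA per cell cannot be told apart.

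**Figure D2:**
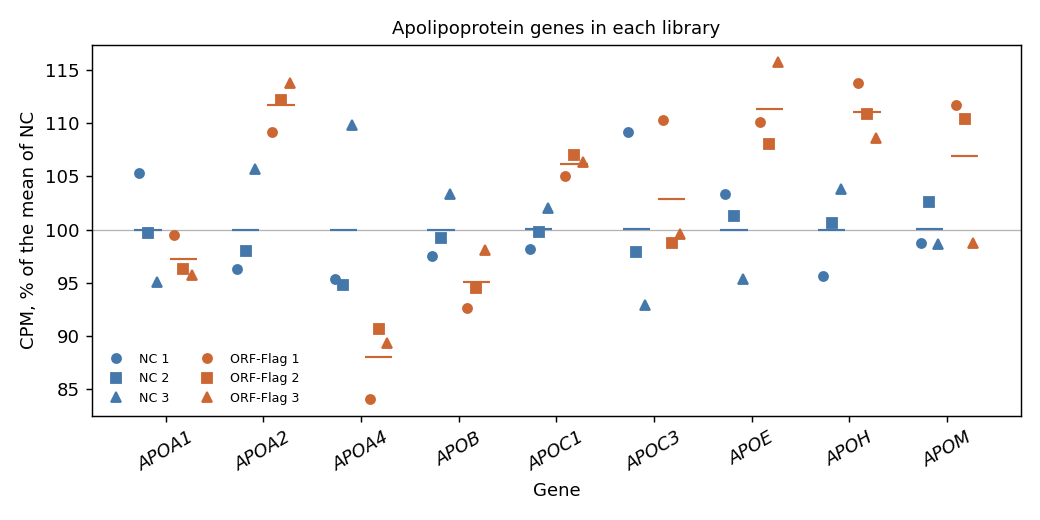
CPM of the 9 tested apolipoprotein genes in each library as a percentage of the NC mean, with points for libraries and short lines for group means. ORF-Flag lies at 109.2 to 113.8% for APOA2, 108.1 to 115.8% for APOE and 108.6 to 113.7% for APOH, above the NC libraries of the same gene.

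The stretches before the transcription start of the 3 upregulated genes are shown to set their promoters side by side, since the genes lie on different chromosomes. The sequences are from RefSeq (GRCh38.p14). The promoter table used here matched 7 of the 10 genes, those other than APOA1, APOB and APOC3. Each sequence runs 5′ to 3′ on the gene's strand over the 250 bases before the start. The stretches are chr1:161223629-161223878 on the minus strand for APOA2, chr19:44905546-44905795 on the plus strand for APOE and chr17:66229416-66229665 on the minus strand for APOH. The starts of APOE and APOH in RefSeq lie inside the longer genes of GENCODE v29. Both strands were searched for the TATA box as TATAAA, the CCAAT box as CCAAT, part of the HNF1 motif as GTTAAT, the FOXA motif as TGTTTAC, the HNF4A motif as CAAAGTCCA, the nuclear receptor motif as AGGTCA and the GC box as GGGCGG, and capitals mark the matches.
APOA2: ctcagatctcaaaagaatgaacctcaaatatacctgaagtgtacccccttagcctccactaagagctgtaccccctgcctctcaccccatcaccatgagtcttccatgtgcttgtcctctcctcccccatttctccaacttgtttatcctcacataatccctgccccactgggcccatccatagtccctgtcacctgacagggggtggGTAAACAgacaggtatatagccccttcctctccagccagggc
APOE: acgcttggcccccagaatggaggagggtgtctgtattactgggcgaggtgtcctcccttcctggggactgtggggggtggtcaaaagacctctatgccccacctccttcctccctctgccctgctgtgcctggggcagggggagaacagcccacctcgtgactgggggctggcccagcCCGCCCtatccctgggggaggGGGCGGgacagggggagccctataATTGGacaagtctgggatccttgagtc
APOH: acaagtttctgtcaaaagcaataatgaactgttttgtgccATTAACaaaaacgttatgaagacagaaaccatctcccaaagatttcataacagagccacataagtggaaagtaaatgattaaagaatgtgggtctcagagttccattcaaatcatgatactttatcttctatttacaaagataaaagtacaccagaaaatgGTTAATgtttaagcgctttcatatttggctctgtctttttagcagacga
The APOA2 stretch held the FOXA letters on the opposite strand, beginning 42 bases before the start. In APOE, the GC box letters began 72 and 51 bases before the start and the CCAAT letters 27 bases before it. In APOH, the HNF1 letters began 210 and 49 bases before the start. The 3 stretches shared none of the motifs searched. Of 35116 promoter stretches of the same length, 2.98% held TGTTTAC, 42.6% GGGCGG, 32.0% CCAAT and 6.23% GTTAAT. The other motifs were in 10.7% (TATAAA), 12.1% (AGGTCA) and 0.325% (CAAAGTCCA). Among the genes not upregulated, APOC1 had a GC box match, APOC2 held TATAAA and AGGTCA, and APOA4 and APOM held none of these letters. A match describes the letters and is not evidence of binding.

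Among the apolipoproteins of HDL, APOA1 encodes the main structural protein and the activator of the enzyme LCAT. APOA1 (ENSG00000118137.10) was at 1652, 1563 and 1490 CPM in NC, and at 1561, 1511 and 1502 CPM in ORF-Flag. The groups overlapped, and NC replicate 1 was the highest library. On the log2 scale the difference was -0.04 with a standard error of 0.04 (adjusted p = 0.602 in edgeR), and the 95% interval of the fold, 0.924 to 1.02, held 1. With a library left out, the difference ran from -0.077 (without NC replicate 3) to -0.002 (without NC replicate 1). APOA2, the second most abundant HDL protein in plasma, lies at chr1:161222292-161223631 on the minus strand (ENSG00000158874.11, GRCh38). It was at 1732, 1763 and 1901 CPM in NC, and at 1963, 2017 and 2046 CPM in ORF-Flag. All 3 ORF-Flag libraries lay above NC, of which replicate 3 was nearest. APOA2 was upregulated by 0.16 ± 0.04 in log2 units (standard error; adjusted p = 0.00925 in edgeR), and the 95% interval of the fold was 1.06 to 1.17. Without NC replicate 2, ORF-Flag replicate 2 or ORF-Flag replicate 3, the adjusted p of APOA2 in edgeR was 0.0646, 0.0512 and 0.0757. The APOA2 to APOA1 ratio of counts, chosen after the values were seen, was 1.05, 1.13 and 1.28 in NC and 1.26, 1.34 and 1.36 in ORF-Flag, so the groups overlapped.

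APOA4, an apolipoprotein of intestinal chylomicrons and of HDL, was low in HepG2. It was at 4.35, 4.32 and 5.01 CPM in NC, and at 3.84, 4.14 and 4.07 CPM in ORF-Flag, from 72 to 150 counts. All ORF-Flag libraries lay below NC, and the adjusted p was 0.495 in edgeR (log2 fold change -0.19, standard error 0.14). The interval of the fold, 0.718 to 1.06, held 1, and without NC replicate 3 the log2 fold change was -0.115. Of the exon bases of APOA4, 43.1% lie over an antisense gene, AP006216.3, which has no row in the count table. The counts of APOA4 are uncertain where strand was not used. APOM, a lipocalin that carries sphingosine-1-phosphate on HDL, was at 50.9, 52.9 and 50.9 CPM in NC, and at 57.6, 56.9 and 50.9 CPM in ORF-Flag. ORF-Flag replicate 3 lay among the NC libraries, and APOM differed by 0.09 ± 0.05 in log2 units (standard error; adjusted p = 0.339 in edgeR). The value was 0.057 without ORF-Flag replicate 1 and 0.151 without ORF-Flag replicate 3. An exon stretch of APOM, 8.19% of its exon bases, lies over exons of BAG6 on the other strand, and since the strand setting of the counting is not given in the sources used here, its counts are uncertain.

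APOB, the scaffold of VLDL and LDL, took more counts than the other apolipoprotein genes. It was at 7695, 7828 and 8152 CPM in NC, and at 7311, 7461 and 7742 CPM in ORF-Flag. ORF-Flag replicate 3 lay above NC replicate 1, so the groups overlapped. APOB differed by -0.07 ± 0.03 in log2 units (standard error; adjusted p = 0.244 in edgeR), with a 95% interval of the fold from 0.906 to 0.998. With the trend of each library on GC content and transcript length removed, APOB was called lower, with a log2 fold change of -0.10 and an adjusted p of 0.035 in edgeR, and over the alternatives its adjusted p ran from 0.035 to 1. APOB made up 57.3%, 57.8% and 58.6% of the counts of the 10 genes in NC, and 54.3%, 55.0% and 55.7% in ORF-Flag. This share, chosen after the values were seen and independent of library scaling, was lower in each ORF-Flag library. The 10 genes together took 1.35%, 1.36% and 1.39% of all counts in NC, and 1.35%, 1.35% and 1.39% in ORF-Flag, so their total overlapped between the groups. Without APOB, a sum likewise chosen after the values were seen and not tested, the level was 5725, 5712 and 5771 CPM in NC and 6166, 6116 and 6166 CPM in ORF-Flag, and the groups did not overlap.

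APOE, a ligand for the uptake of remnant particles, lies at chr19:44905754-44909393 on the plus strand (ENSG00000130203.10). It was at 846.1, 828.9 and 780.6 CPM in NC, and at 901.1, 884.6 and 947.7 CPM in ORF-Flag. The ORF-Flag libraries lay above NC, with replicate 3 highest. APOE was upregulated by 0.16 ± 0.04 in log2 units (standard error; adjusted p = 0.0118 in edgeR), and the interval of the fold was 1.06 to 1.17. Without ORF-Flag replicate 3 its adjusted p in edgeR was 0.125, and with the GC and length trends removed its log2 fold change was 0.25, over 1.5 times the main value. The APOE to APOB ratio of counts, also chosen after the values were seen, was 0.110, 0.106 and 0.0958 in NC and 0.123, 0.119 and 0.122 in ORF-Flag.

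APOC1, which lies beside APOE on chromosome 19 and inhibits lipoprotein lipase and CETP, was at 218.3, 221.8 and 226.9 CPM in NC, and at 233.5, 237.9 and 236.5 CPM in ORF-Flag. The groups did not overlap, but the difference was small, at 0.08 ± 0.03 in log2 units (standard error; adjusted p = 0.153 in edgeR). Its exons share 43.2% of their bases with the annotated gene AC011481.3 on the same strand, which has no row in the count table. How reads over the shared bases were counted is not given in the sources used here, so the counts of APOC1 are uncertain. An overlap of 8.64% with APOA1-AS on the other strand was found for APOA1, of 1.14% with AC010872.1 for APOB, also on the other strand, and of 0.867% with AC011481.3 on the same strand for APOE. APOA1-AS and AC010872.1 have no row in the count table either. APOC2, the activator of lipoprotein lipase in the same cluster, had between 1 and 4 counts in each library, did not pass the filter on low counts, and was not called when edgeR was run with no filter. Since 3 counts correspond to 0.100 to 0.172 CPM, a difference in APOC2 was not detectable at this depth. The annotated readthrough gene APOC4-APOC2 covers 55.4% of its exon bases on the same strand and had between 0 and 4 counts, and how reads shared by these genes were counted is not given in the sources used here, so the level of APOC2 is uncertain. APOC3, an inhibitor of lipoprotein lipase in the chromosome 11 cluster with APOA1 and APOA4, was at 37.6, 33.7 and 32.0 CPM in NC, and at 38.0, 34.0 and 34.3 CPM in ORF-Flag. Replicate 1 was the highest library in both groups, the groups overlapped, and the difference was 0.05 ± 0.06 in log2 units (standard error; adjusted p = 0.742 in edgeR).

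APOH, also called beta-2-glycoprotein I, binds anionic phospholipids and is the main antigen of antiphospholipid antibodies. It lies at chr17:66212033-66256525 on the minus strand (ENSG00000091583.11). Its levels were 1183, 1245 and 1285 CPM in NC, and 1408, 1371 and 1344 CPM in ORF-Flag. All ORF-Flag libraries lay above NC, with replicate 3 nearest to it. APOH was upregulated by 0.15 ± 0.03 in log2 units (standard error; adjusted p = 0.0108 in edgeR), with a fold between 1.06 and 1.17 in its 95% interval. Without ORF-Flag replicate 1 its adjusted p in edgeR was 0.0693. At a fold change above 1.2 with an unadjusted p below 0.05, and with glmTreat against 1.2, 0 of the 9 genes were called, since the folds of APOA2, APOE and APOH lay below 1.2. Of all 12386 tested genes, 562 were called by this fold rule and 17 by glmTreat.

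**Figure D3:**
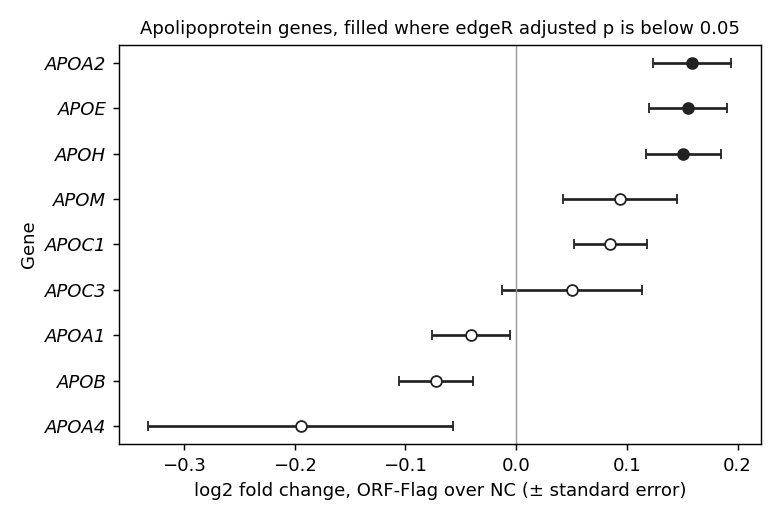
Log2 fold change of ORF-Flag over NC for the 9 tested apolipoprotein genes, with bars of 1 standard error on each side. Filled points, APOA2, APOE and APOH at 0.16, 0.16 and 0.15, had an adjusted p below 0.05 in edgeR.

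**Figure D4:**
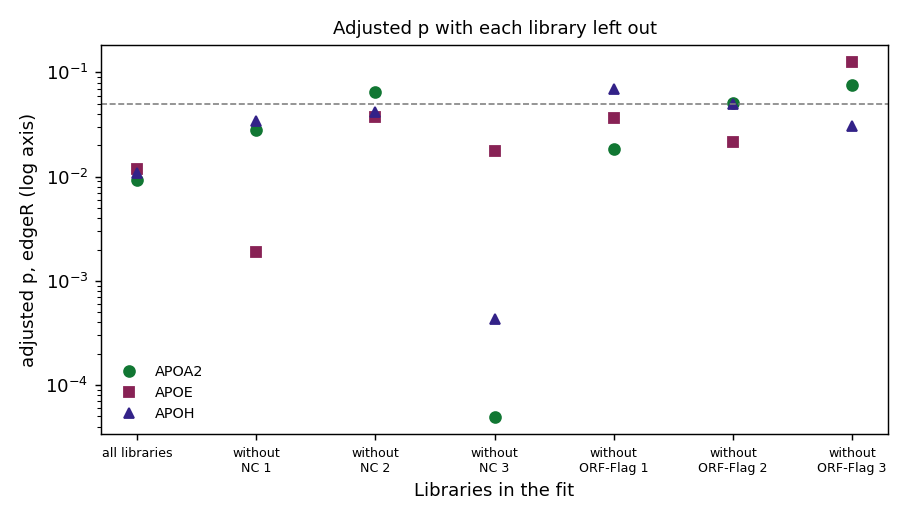
Adjusted p (edgeR, log axis) of APOA2, APOE and APOH with all libraries and with each library left out, with a dashed line at 0.05. Without ORF-Flag replicate 3, APOE stood at 0.125 and APOA2 at 0.0757, both above the line.

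The libraries differed in their trend on base composition. Across 12345 genes with a known length, which are not independent replicates, Spearman's correlation of a library's deviation from the gene mean with GC content was 0.449 in NC replicate 1, 0.140 in NC replicate 2 and -0.242 in NC replicate 3. The ORF-Flag libraries were at -0.034, -0.199 and -0.218. The exons of APOE have 68.5% GC in its longest transcript and those of APOH 42.9%. With the GC and length trends removed, the log2 fold changes of APOA2, APOE and APOH were 0.174, 0.251 and 0.123, against 0.159, 0.155 and 0.151 in the main comparison. Without NC replicate 1, the library with the highest correlation, APOA2, APOE and APOH had adjusted p of 0.0278, 0.00188 and 0.0345 in edgeR.

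Of 17 other apolipoprotein genes, 9 could be tested and 0 were called in either direction by edgeR, DESeq2, limma-trend and limma-voom, with 1 lower at an unadjusted p below 0.05 in edgeR. Over all tested genes, 2.47% were called higher and 1.98% lower in edgeR, and 9.29% and 9.22% by its unadjusted p. CLU, the gene of highest mean CPM in this list (CPM here is not scaled for length), encodes the chaperone apolipoprotein J. CLU was at 285.4, 279.0 and 264.2 CPM in NC, and at 254.6, 263.0 and 244.6 CPM in ORF-Flag, with a log2 fold change of -0.12 and an adjusted p of 0.0585 in edgeR. CLU was called lower in edgeR with no filter (adjusted p = 0.0172) and with the replicate number as a block (adjusted p = 0.0201). It was also called lower without NC replicate 3 (adjusted p = 0.00441) and with the GC and length trends removed (adjusted p = 0.0289). Over the alternatives its adjusted p ran from 0.00441 to 1. Of 20 genes for lipoprotein assembly and secretion, all tested, 1 was called higher (2.47% of all tested genes) and 1 lower (1.98%), with 1 higher (9.29%) and 2 lower (9.22%) at an unadjusted p below 0.05 in edgeR, and their median log2 fold change was -0.001. DGAT1, which makes triglycerides, was at 62.2, 50.4 and 49.5 CPM in NC and 42.8, 44.5 and 42.4 CPM in ORF-Flag. DGAT1 fell by 0.32 on the log2 scale (standard error 0.06, adjusted p = 0.00513 in edgeR), and NC replicate 1 stood above the other NC libraries. Without it, DGAT1 fell by 0.21 (adjusted p = 0.0181 in edgeR). ACSL3, an acyl-CoA synthetase of lipid droplets, rose by 0.12 on the log2 scale (adjusted p = 0.0408 in edgeR). When single libraries were left out, ACSL3 was called without NC replicate 3 and in none of the other 5 fits, where its adjusted p in edgeR reached 0.184, nor with the GC and length trends removed. P4HB, a subunit of the microsomal triglyceride transfer complex and the gene of highest mean CPM in the list, had a log2 fold change of -0.0024 (adjusted p = 0.98 in edgeR).

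Among 19 genes for lipoprotein receptors and cholesterol transporters, 16 were tested, 1 was called higher (2.47% of all tested genes) and 1 lower (1.98%), with 1 higher (9.29%) and 4 lower (9.22%) at an unadjusted p below 0.05 in edgeR. ABCA1, which passes cholesterol to APOA1, rose by 0.25 ± 0.04 in log2 units (standard error; adjusted p = 0.0012 in edgeR), with 66.1 to 67.5 CPM in NC against 76.9 to 84.7 CPM in ORF-Flag. LRP1, a remnant receptor and the gene of highest mean CPM in this list, was at 639.5, 658.7 and 610.9 CPM in NC and at 572.0, 569.5 and 569.1 CPM in ORF-Flag. LRP1 fell by 0.16 on the log2 scale (standard error 0.03, adjusted p = 0.00625 in edgeR), and without NC replicate 2 its adjusted p was 0.0606.

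**Figure D5:**
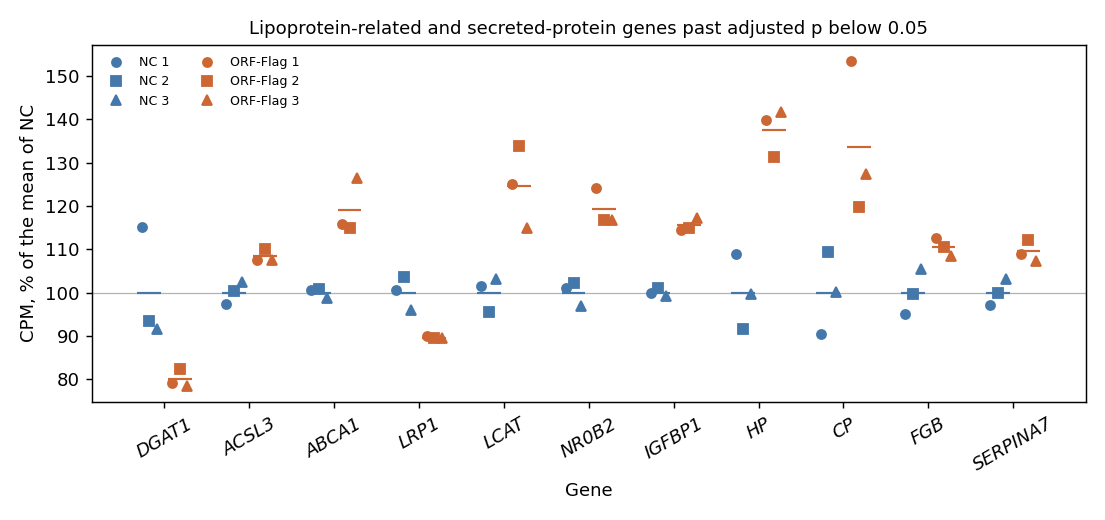
CPM of the genes of the related lists with an adjusted p below 0.05, as a percentage of the NC mean, with 1 point for each library and short lines for group means. ABCA1 lies at 114.8 to 126.5% in ORF-Flag, and DGAT1 and LRP1 lie below 100% in the ORF-Flag libraries.

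Of 19 genes for lipases and plasma lipoprotein remodelling, 16 were tested, 1 was called higher and 0 lower in edgeR, with 6 higher and 0 lower at an unadjusted p below 0.05. Of all tested genes, 2.47% were called higher and 1.98% lower, and 9.29% were higher and 9.22% lower by the unadjusted p. LCAT, which esterifies cholesterol on HDL, was at 13.1, 12.3 and 13.3 CPM in NC, and at 16.1, 17.2 and 14.8 CPM in ORF-Flag, and rose by 0.31 on the log2 scale (adjusted p = 0.0251 in edgeR). LCAT was not called with DESeq2 (adjusted p = 0.0571), nor in edgeR without NC replicate 2, ORF-Flag replicate 1 or ORF-Flag replicate 2 (adjusted p of 0.125, 0.091 and 0.127). LIPA, the lysosomal acid lipase and the gene of highest mean CPM here, had an adjusted p of 0.366 in edgeR. Of 33 transcription factors known at apolipoprotein genes, all tested, 1 was called higher and 0 lower in edgeR, DESeq2 and limma-voom. In limma-trend 1 was called higher and 1 lower, and the unadjusted p of edgeR gave 3 higher and 2 lower. Over these factors the log2 fold change ran from -0.311 for CEBPA (adjusted p = 0.0521 in edgeR, groups overlapping) to 0.282 for CREB3L3 (adjusted p = 0.176 in edgeR, groups not overlapping). NR0B2, a corepressor of nuclear receptors, was at 79.6, 80.6 and 76.4 CPM in NC and at 98.0, 92.0 and 92.1 CPM in ORF-Flag, and rose by 0.26 on the log2 scale (adjusted p = 0.000491 in edgeR). HNF4A, the factor of highest mean CPM in the list and a regulator of many apolipoprotein genes, had a log2 fold change of -0.05 (adjusted p = 0.507 in edgeR). With a library left out, its value ran from -0.089 (without NC replicate 3) to -0.026 (without NC replicate 1).

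Other proteins secreted by hepatocytes gave a reference for the apolipoproteins. Of 29 such genes, 28 were tested, and 5 were called higher and 0 lower by edgeR, DESeq2, limma-trend and limma-voom. Of all tested genes, 2.47% were called higher and 1.98% lower in edgeR at an adjusted p below 0.05. At an unadjusted p below 0.05 in edgeR, 11 of these genes were higher and 0 lower, where 9.29% of all tested genes were higher and 9.22% lower. The median log2 fold change was 0.077, beside 0.085 for the apolipoproteins. The 5 genes were HP (haptoglobin, log2 fold change 0.47), CP (ceruloplasmin, 0.42), IGFBP1 (an insulin-like growth factor binding protein, 0.21), FGB (fibrinogen beta chain, 0.14) and SERPINA7 (thyroxine-binding globulin, 0.13). Their adjusted p ran from 0.000232 for IGFBP1 to 0.029 for SERPINA7 in edgeR. ALB, the gene of highest mean CPM among them, was at 6714 to 7204 CPM in NC and 7289 to 7586 CPM in ORF-Flag, with an adjusted p of 0.205 in edgeR. CP was not called without ORF-Flag replicate 1 (adjusted p = 0.0917 in edgeR). With 1 library left out, FGB and SERPINA7 were called without NC replicate 3 and in none of the other 5 fits, where their adjusted p in edgeR reached 0.117 and 0.159.

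Markers were used to check the labelled cell type. Of 10 hepatocyte and hepatoma markers, all were tested, and ALB had the highest mean CPM; their summed level was 21867, 22328 and 22408 CPM in NC and 23678, 23094 and 22914 CPM in ORF-Flag, and KRT8, KRT18 and FGB were called higher, against 2.47% of all tested genes. AFP, TF, AHSG, HNF4A and TTR overlapped between the groups, and ALB and SERPINA1 did not, with adjusted p of 0.205 and 0.13 in edgeR. TTR was low, at 5.63 to 6.66 CPM. Of 8 fibroblast and stellate cell markers, 7 stayed under 1 CPM in each library and DCN was at 0, while ACTA2 was at 62.8 to 71.7 CPM. Of 6 endothelial markers, 5 stayed under 1 CPM, KDR, TEK and EMCN were at 0, and PECAM1 had the highest mean CPM. PECAM1 was at 4.45, 3.84 and 4.78 CPM in NC and at 6.03, 5.29 and 5.78 CPM in ORF-Flag, and the groups did not overlap (log2 fold change 0.39, adjusted p = 0.0958 in edgeR). The summed level of the endothelial markers was 4.75, 4.16 and 5.01 CPM in NC and 6.56, 5.51 and 6.26 CPM in ORF-Flag, and that of the fibroblast and stellate cell markers 71.3, 71.1 and 63.7 CPM in NC and 72.0, 72.3 and 71.9 CPM in ORF-Flag. Of 7 blood and immune markers, 3 stayed under 1 CPM in each library and PTPRC and CD3E were at 0. LYZ, with the highest mean CPM of these, was called higher in ORF-Flag, at 1255, 1401 and 1396 CPM in NC and 1488, 1591 and 1488 CPM in ORF-Flag. Of 5 cholangiocyte markers, KRT7 and CFTR stayed under 1 CPM, and KRT19, with the highest mean CPM over the 6 libraries, was called higher, at 478.2 to 528.7 CPM in NC and 573.0 to 583.9 CPM in ORF-Flag. EPCAM, which lay above KRT19 in NC replicates 2 and 3, and SOX9 overlapped between the groups, with log2 fold changes of -0.01 and 0.01 (adjusted p of 0.89 and 0.925 in edgeR). The summed levels were 1303, 1444 and 1439 CPM in NC and 1533, 1635 and 1533 CPM in ORF-Flag for blood and immune markers, and 1079, 1045 and 1040 CPM in NC and 1129, 1124 and 1139 CPM in ORF-Flag for cholangiocyte markers. The part of these markers in the apolipoprotein results was not tested.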

How the data were processed

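RNA was extracted with TRIzol and libraries were prepared with a VAHTS kit per the labels. The authors deposited raw read counts per gene for 20422 Ensembl genes in 6 libraries, and the submitters' processing notes name cutadapt 1.11, HISAT2 2.1.0, featureCounts 1.6.0, edgeR and GRCh38, with no strand setting. Groups were taken from the sample labels. The counts were used as deposited, with 20421 identifiers matched to a symbol. Pairs of libraries of a group differed by 2.39 to 5.23 in chi-square per degree of freedom, so none looked like 1 library deposited again. Groups were compared in R 4.3.3 with edgeR 4.0.16 (filterByExpr default, TMM, glmQLFit, glmQLFTest), with Benjamini-Hochberg adjustment over 12386 genes. Standard errors were derived from the F statistic. Alternatives were DESeq2 1.42.0, limma 3.58.1 (trend with a prior count of 2, and voom), no TMM, no filter, at least 10 counts in every library, a block for the replicate number, leaving out single libraries, GC and length trends removed (GENCODE v29), a fold rule, and glmTreat against a fold change of 1.2. The fits, other than those with no filter or with libraries left out, were tested on simulated data. All 10 genes are named. From each related list, genes with an adjusted p below 0.05 (at most 6) and the gene of highest mean CPM are named. For the transcription factors, those of lowest and highest log2 fold change are named as well. A gene of the receptor list is not reported here. Members and lists were chosen with earlier results of these data known. Floors of 3 counts cover counting error only. Figures were drawn with matplotlib 3.10.9.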

Additional observations from a re-analysis of the deposited data

How the results depend on the processing

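APOA2, APOE and APOH were higher in ORF-Flag under all 16 alternatives, with log2 fold changes of 0.133 to 0.200, 0.121 to 0.251 and 0.120 to 0.178. The fold rule and glmTreat used the fold changes of the main comparison, so their direction was fixed beforehand. In these genes every ORF-Flag library lay above every NC library, so leaving out a library could hardly reverse the direction. The other fits reused the same libraries, so the shared direction is not independent support. The number of apolipoprotein genes called was 3 in the main comparison and 1 to 3 with a library left out, and 0 at a fold change above 1.2 with an unadjusted p below 0.05 and 0 with glmTreat, since both ask for a larger fold. With GC and length trends removed it was 4, adding APOB as lower. For all genes it was 551, with 562 under the fold rule, 17 in glmTreat and 821 with GC and length trends removed. With a library left out, the number for all genes ran from 199 (without ORF-Flag replicate 3) to 1058 (without NC replicate 3). With the replicate number as a block, 3 apolipoprotein genes and 731 genes in all were called, and CLU was called lower (adjusted p = 0.0201 in edgeR). The main comparison did not treat the numbers as pairs, because no label says that a number marks a shared culture or day. Correlations of same-numbered libraries were 0.067, 0.027 and 0.045. ORF-Flag replicate 2 correlated best with NC replicate 3 (0.030), and the other libraries with their own number. The direction reversed for 3 genes that were not called: APOA1 was at 0.024 with GC and length trends removed, APOC3 ran from -0.005 (without ORF-Flag replicate 1) to 0.114 with a library left out, and P4HB was at 0.038 with these trends removed and ran from -0.016 to 0.013 (without ORF-Flag replicate 3) with a library left out; the cause was not tested. APOC2 did not pass the filter on low counts, and APOA4 had the widest interval of the fold among the 9 tested genes of the 10 followed here.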
